A study of Homo sapiens with 24 samples.

Results

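The transcripts described here are those of 9 genes that the tumour suppressor p53 is known to activate, namely TP53INP1, BTG2, ZMAT3, RRM2B, GADD45A, SESN1, CDKN1A, FAS and MDM2, out of 30142 genes on the array. Every array feature carrying one of these gene names was taken, which gave 12 distinct 60-base features, and the brightest feature stood for its gene. The question asked was whether loss of the forkhead transcription factor FOXP1 raised the RNA of p53 targets in diffuse large B-cell lymphoma (DLBCL) lines. FOXP1 was silenced in DB and K422, lines of the germinal centre B-cell type (GCB-DLBCL), and in HBL-1 and OCI-Ly3, lines of the activated B-cell type (ABC-DLBCL). Cells received 1 µM of either siFOXP1 #1 (siFOXP1_308) or siFOXP1 #2 (siFOXP1_309) by nucleofection, a form of electroporation, and control cells of the same line received a non-targeting siRNA (siCtrl). RNA was taken at 48 h, with 3 replicates for either siRNA in a line, hence 24 arrays of 2 colours and 6 arrays per line. These are bulk samples, in which fewer cells of a type and less RNA per cell cannot be told apart. Each line is a single established culture, so a subtype is represented by 2 lines only. Arrays of siFOXP1 #1 and #2 with the same replicate number carry the same control label, so the control samples number 12, or 3 per line. The dyes were never swapped, Cy3 always marking the siFOXP1 RNA and Cy5 the siCtrl RNA, so that a dye bias of a feature and a response to silencing cannot be told apart.

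In normal cells p53 is held at a low level by MDM2, an E3 ubiquitin ligase that is itself a p53 target and so closes a feedback loop. When DNA is damaged or a cell is stressed, p53 accumulates and activates genes that stop the cell cycle, repair DNA or start apoptosis. Several of these genes can also be driven by other factors, and in B cells p53 activity is known to be restrained in the germinal centre.

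The promoter sequences show which of these genes carry a recognisable p53 element close to a start site. RefSeq windows of GRCh38.p14 were at hand for 6 of the 9 genes, in 14 windows, and the 250 bases before each start site were searched on the gene's strand, the p53 consensus being its own reverse complement. A match was a tandem pair of the p53 consensus decamer without a spacer, with at most 3 mismatches over 20 bases and the core C and G kept. It occurred in 0.914% of 35116 windows of all genes and in 4 windows of 3 of the genes described here, FAS, MDM2 and SESN1. The rule was set after the sequences were viewed, and SESN1 matched only at the limit of 3 mismatches. The count beside the share of all windows is therefore no test. The match is in capitals below. The sequences lie at chr10:88991269-88991368 (plus strand), chr12:68808883-68808982 (plus strand) and chr6:109008989-109009077 (minus strand), and the MDM2 stretch precedes 2 of its 4 start sites.
FAS: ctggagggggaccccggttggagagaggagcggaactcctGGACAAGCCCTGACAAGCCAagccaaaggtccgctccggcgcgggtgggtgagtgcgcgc
MDM2: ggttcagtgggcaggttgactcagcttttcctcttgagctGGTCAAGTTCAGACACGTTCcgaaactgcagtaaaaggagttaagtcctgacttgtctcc
SESN1: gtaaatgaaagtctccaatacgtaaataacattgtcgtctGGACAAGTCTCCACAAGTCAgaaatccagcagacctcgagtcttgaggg
The forkhead words TGTTTAC and TATTTNT, searched on both strands, were in 2.98% and 15.9% of all windows and in none of the 14 windows of these genes. A match is a description of letters, and its absence from so short a window says nothing about binding.

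FOXP1 RNA fell in every line, which is the check of the silencing. Its mean log2(siFOXP1/siCtrl) lay between -2.00 in DB and -1.34 in K422, and it was lower on all 6 arrays of each line. On average siFOXP1 #2 lowered it further than siFOXP1 #1 in each line, for instance by a log2 ratio of -2.70 against -1.30 in DB. The share of features well above background in 1 channel or both ran from 57.3% to 64.5% per array, and precision is limited by how many arrays there are. The B-cell markers MS4A1, CD79A, CD79B and PAX5 were above background on the 6 arrays of each line. So were the 4 GCB markers in DB and K422 and the 4 ABC markers in HBL-1 and OCI-Ly3. Not all of these markers divided the subtypes. The control channels of LMO2 and BCL6 were above background on all 6 arrays of HBL-1 and OCI-Ly3 too. The same held for PIM1 in DB and K422 and for ENTPD1 in DB. MME was above background on no array of HBL-1 or OCI-Ly3, nor IRF4 and CCND2 on any of DB or K422. Of 5 T or NK-cell markers, 3 were also above background on all 6 arrays of K422. Control levels there were 2.29 for CD3D and 3.34 for CD3G on the log2 scale used below. The control channel of CD3D and CD3G was above background on no array of DB, HBL-1 or OCI-Ly3. CD3E, also among the 3, was above background in that channel on all 6 arrays of HBL-1 and OCI-Ly3 too. Of 4 myeloid markers, CSF1R was above background in the control channel on all 6 arrays of each line, and CD14 on those of K422. The part of these marker transcripts in the results was not tested.

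Silencing of FOXP1 was accompanied by a rise of TP53INP1 in K422, HBL-1 and OCI-Ly3, of BTG2 in DB and HBL-1, of GADD45A in K422, and of ZMAT3 and RRM2B in HBL-1. MDM2 fell in HBL-1. CDKN1A, SESN1 and FAS passed the threshold in no line. A call needed an adjusted p under 0.05 in limma, with Benjamini-Hochberg adjustment over all genes, and a log2 ratio of at least 0.5 in size, which is 1.41-fold. The limma fit of the ratios treated the arrays as independent, although arrays of a line with the same replicate number share control RNA by label. By this rule 1 of the 9 genes was called in DB, where 2.16% of all genes were called. In K422 2 of 9 were called against 4.44% of all genes, in HBL-1 5 of 9 against 9.9%, and in OCI-Ly3 1 of 9 against 4.42%. Averaged over the 4 lines, 2 of 9 were called against 2.57%. The 9 genes and the lists below were chosen with earlier results of these data known. Here and below, a count set beside the share of all genes is therefore a description and no test. The median log2 ratio of the 9 genes was 0.09 for DB, 0.01 for K422, 0.15 for HBL-1 and 0.16 for OCI-Ly3, beside a median of 0 over all genes in each line.

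**Figure D1:**
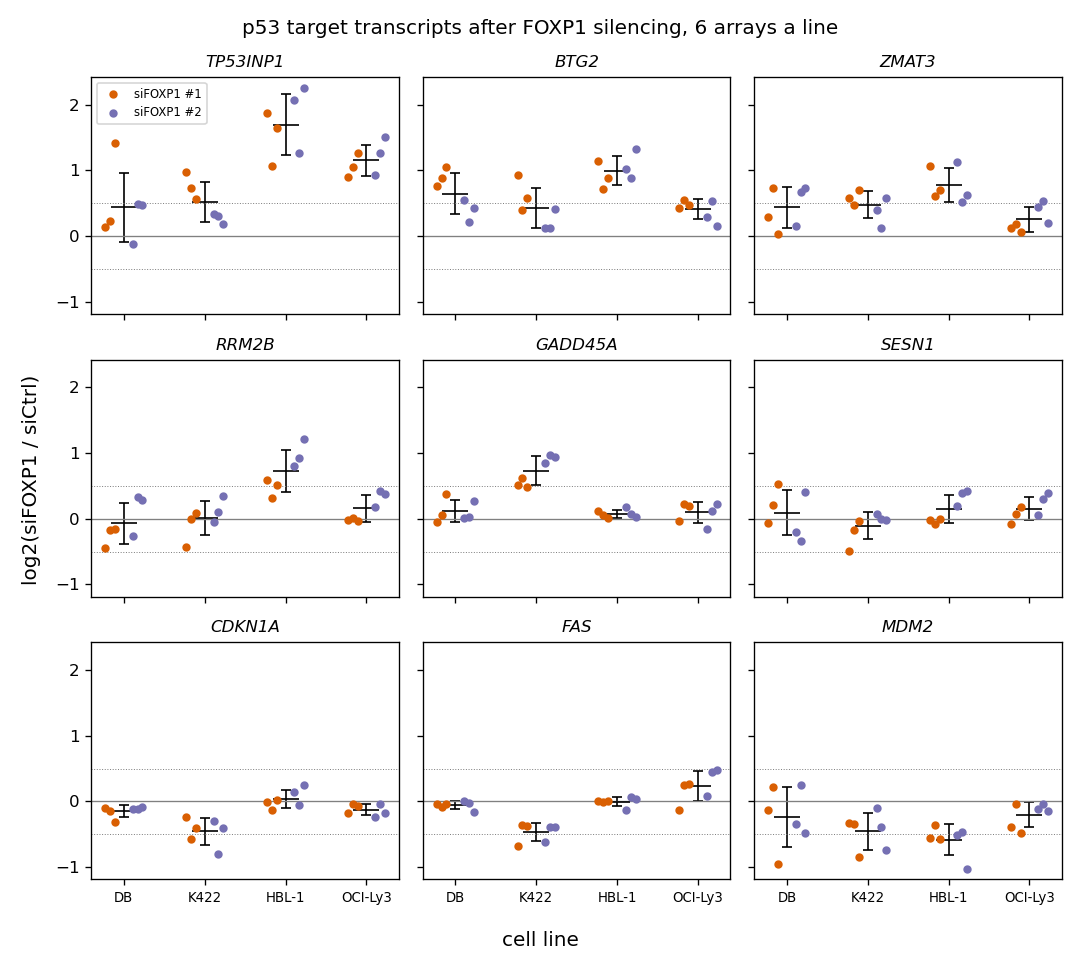
Log2(siFOXP1/siCtrl) of the 9 transcripts on each of the 6 arrays per line, in replicate order from left to right within an siRNA (orange, siFOXP1 #1 and violet, siFOXP1 #2), with the mean and SD over the 6 arrays in black and dotted lines at 0.5 and -0.5. All 24 points of BTG2 and of ZMAT3 lie above 0, TP53INP1 is highest in HBL-1 with a mean of 1.69, and the 18 points of MDM2 in K422, HBL-1 and OCI-Ly3 lie below 0.

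TP53INP1 encodes a stress-induced nuclear protein that takes part in p53-dependent apoptosis and in autophagy, and it had the highest mean ratio of the 9 genes in HBL-1 and OCI-Ly3. In HBL-1 its log2 ratios were 1.87, 1.07 and 1.65 with siFOXP1 #1 and 2.06, 1.26 and 2.26 with siFOXP1 #2. In OCI-Ly3 they were 0.89, 1.06 and 1.27 with siFOXP1 #1 and 0.93, 1.26 and 1.51 with siFOXP1 #2. All 12 arrays of the ABC-DLBCL lines were therefore above 0.8, with means of 1.69 ± 0.46 (SD, n = 6 arrays; limma adjusted p = 2.95e-07) in HBL-1 and 1.15 ± 0.24 (adjusted p = 5.05e-05) in OCI-Ly3. In K422 the ratios were 0.98, 0.72 and 0.56 with siFOXP1 #1 but 0.33, 0.30 and 0.18 with siFOXP1 #2. Their mean was 0.51 ± 0.30 (limma adjusted p = 0.0264), and with siFOXP1 #2 alone the mean of 0.27 did not pass (adjusted p = 0.596). In K422 the call was also lost without replicate 1 (mean 0.44), replicate 2 (0.51) or replicate 3 (0.58), with limma adjusted p from 0.0738 to 0.169. In DB the mean was 0.44 ± 0.53 and did not pass (limma adjusted p = 0.0805), with 5 of 6 arrays above 0 and the highest, 1.41, on replicate 3 of siFOXP1 #1. Without replicate 1 of DB it was called (0.65, limma adjusted p = 0.0316), and without replicate 3 the mean was 0.18 (adjusted p = 0.542).

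BTG2 encodes an antiproliferative protein that promotes shortening of mRNA poly(A) tails. It was higher on 24 of 24 arrays. In DB its ratios were 0.77, 0.88 and 1.05 with siFOXP1 #1 and 0.54, 0.21 and 0.42 with siFOXP1 #2, a mean of 0.65 ± 0.31 (n = 6 arrays; limma adjusted p = 3.20e-05). In HBL-1 they were 1.14, 0.72 and 0.89 with siFOXP1 #1 and 1.01, 0.88 and 1.33 with siFOXP1 #2, a mean of 0.99 ± 0.22 (limma adjusted p = 4.06e-08). Every HBL-1 array was thus above 0.7, and the siRNAs overlapped there, whereas in DB each siFOXP1 #1 array was above each siFOXP1 #2 array. The means of 0.43 ± 0.30 in K422 and 0.41 ± 0.15 in OCI-Ly3 passed the adjusted p (0.00066 and 0.00104, limma) but not the limit of size. In DB the call was lost with siFOXP1 #2 alone (mean 0.39, limma adjusted p = 0.052), and in K422 a call was gained without replicate 2 (mean 0.51).

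ZMAT3 encodes a zinc-finger protein that binds RNA and acts in splicing and mRNA stability. It too was higher on 24 of 24 arrays, and only HBL-1 passed the threshold. In HBL-1 the ratios were 1.07, 0.60 and 0.69 with siFOXP1 #1 and 1.12, 0.52 and 0.62 with siFOXP1 #2, a mean of 0.77 ± 0.26 (n = 6 arrays; limma adjusted p = 9.52e-06). The means were 0.43 ± 0.31 for DB, 0.47 ± 0.20 for K422 and 0.25 ± 0.19 for OCI-Ly3, with limma adjusted p of 0.00727, 0.00223 and 0.0901. The control channel of this feature was well above background on 2 of 6 arrays in DB and 5 of 6 in K422, so that its ratio there rests on a dim control signal. ZMAT3 was called in DB without replicate 1 (0.54) and in K422 without replicate 2 (0.56). Its call in HBL-1 was lost with normexp background correction and median centring, where the mean of 0.42 was under the limit of size. Over the 4 lines its mean was 0.48, just under the limit of size, beside 0.62 for BTG2 and 0.95 for TP53INP1, which passed it.

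RRM2B encodes the p53-inducible subunit of ribonucleotide reductase, which supplies deoxynucleotides for DNA repair and mitochondrial DNA. In HBL-1 its ratios were 0.59, 0.32 and 0.52 with siFOXP1 #1 and 0.81, 0.92 and 1.22 with siFOXP1 #2, a mean of 0.73 ± 0.32 (n = 6 arrays; limma adjusted p = 2.56e-06). The values of siFOXP1 #2 all lay above those of siFOXP1 #1, whose mean of 0.48 alone was below the limit of size (limma adjusted p = 0.00789). The HBL-1 mean was also below that limit with normexp background correction and median centring (0.41). In the other lines the means were -0.07 ± 0.31 for DB, 0.01 ± 0.26 for K422 and 0.16 ± 0.21 for OCI-Ly3, and none passed the adjusted p.

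GADD45A, a stress sensor of the growth arrest and DNA damage family, was called in K422. Its ratios in K422 were 0.51, 0.62 and 0.49 with siFOXP1 #1 and 0.85, 0.97 and 0.94 with siFOXP1 #2, a mean of 0.73 ± 0.22 (n = 6 arrays; limma adjusted p = 1.66e-07). In K422 the siRNAs did not overlap, the higher values being those of siFOXP1 #2. The means were 0.12 ± 0.17 in DB, 0.08 ± 0.06 in HBL-1 and 0.10 ± 0.16 for OCI-Ly3, with limma adjusted p from 0.231 to 0.375.

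SESN1 encodes sestrin 1, which limits mTORC1 signalling under stress. No line passed the adjusted p for SESN1, whose means were 0.09 ± 0.35 for DB, -0.11 ± 0.20 for K422, 0.15 ± 0.22 for HBL-1 and 0.15 ± 0.17 for OCI-Ly3. Its second feature, dimmer than the first, had means from -0.07 in DB to 0.24 in K422 and was likewise not called. In DB the control channel of that feature was above background on no array and its siFOXP1 channel on 1 of 6. The DB mean (SD 1.00) therefore rests on background signal.

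CDKN1A encodes the cyclin-dependent kinase inhibitor p21, the main effector of p53-induced cell cycle arrest. The line with the greatest response was K422, where the ratios were -0.24, -0.57 and -0.40 with siFOXP1 #1 and -0.30, -0.80 and -0.40 with siFOXP1 #2. All 6 were below 0, and the mean of -0.45 ± 0.20 (n = 6 arrays) passed the adjusted p (limma, 3.28e-05) but not the limit of size. Without replicate 1 of K422 the mean was -0.54 and was called. The remaining means, -0.15 ± 0.09 for DB, 0.04 ± 0.14 for HBL-1 and -0.12 ± 0.09 for OCI-Ly3, did not pass the adjusted p. A second CDKN1A feature, dimmer than the first, gave 0.83 ± 0.49 in DB and passed the threshold there when all features were fitted (limma adjusted p = 0.00103), but neither channel of it was well above background on any DB array. In HBL-1 and OCI-Ly3, where it was above background on all arrays, the second feature gave 0.23 ± 0.10 and 0.19 ± 0.14 and did not pass, so the 2 features had opposite signs in OCI-Ly3.

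FAS encodes the death receptor CD95. In K422 its ratios were -0.68, -0.37 and -0.38 with siFOXP1 #1 and -0.61, -0.40 and -0.39 with siFOXP1 #2, a mean of -0.47 ± 0.14 (n = 6 arrays) that passed the adjusted p (limma, 2.93e-05) but not the limit of size. Without replicate 2 or 3 of K422 the mean was -0.51 and was called. In OCI-Ly3 the mean was 0.24 ± 0.23 with 5 of 6 arrays above 0, again under the limit (limma adjusted p = 0.00925). HBL-1 had a mean of 0.00 ± 0.07. In DB neither channel was well above background on any array, so that FAS has no measured ratio in that line.

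MDM2, the ubiquitin ligase described above, was lower in every line on average. In HBL-1 the ratios were -0.55, -0.36 and -0.56 with siFOXP1 #1 and -0.51, -0.47 and -1.02 with siFOXP1 #2, a mean of -0.58 ± 0.23 (n = 6 arrays; limma adjusted p = 0.00204). The call was lost without replicate 3 of HBL-1, which holds the lowest value (mean -0.47, limma adjusted p = 0.0445). It was also lost with siFOXP1 #1 alone (-0.49, limma adjusted p = 0.0791) and with the mean over both MDM2 features (-0.41). With normexp background correction the HBL-1 mean was -0.26 with loess and -0.33 with median centring, less than the limit of size. In K422 the mean was -0.46 ± 0.28 (limma adjusted p = 0.0188), with all 6 arrays below 0, and it was under the limit of size. It was called without replicate 1 of K422 (-0.58) or without the siFOXP1 #1 array of that replicate (-0.50), and without replicate 3 it was -0.29. The means of -0.24 ± 0.45 in DB and -0.20 ± 0.19 in OCI-Ly3 did not pass the adjusted p. The feature used lies at chr12:67489279-67489338 of hg18 and the dimmer second MDM2 feature at chr12:67520089-67520148, both on the plus strand. The second feature gave -0.25 ± 0.05 in HBL-1 and -0.31 ± 0.19 in K422, and in K422 its control channel was above background on no array. In HBL-1 its control channel was above background on 3 of 6 arrays and its siFOXP1 channel on 4 of 6.

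Of the other genes, the features of 6 lie, in hg18, at chr1:201545077-201545136 for BTG2 (plus strand), chr3:180224855-180224914 for ZMAT3 (minus strand), chr1:67925959-67926018 for GADD45A (plus strand), chr6:109415170-109415229 for SESN1 (minus strand), chr6:36762684-36762743 for CDKN1A (plus strand) and chr10:90764525-90764584 for FAS (plus strand).

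The difference between siRNAs was tested in each line, because a response seen with only 1 of the siRNAs could not be ascribed to FOXP1. None of the 9 genes was called for siFOXP1 #2 against #1, where the share of all genes called was 0.302% for DB, 0.159% for K422, 0.173% for HBL-1 and 0.192% for OCI-Ly3. At an unadjusted limma p under 0.05 there were 2 genes in each of DB, K422 and HBL-1, and 0 in OCI-Ly3. The greatest differences were -0.51 ± 0.15 (SE) for BTG2 in DB, 0.50 ± 0.16 for RRM2B in HBL-1 and -0.48 ± 0.31 for TP53INP1 in K422, with limma adjusted p of 0.189, 0.446 and 0.886. BTG2 in DB and K422 was higher with siFOXP1 #1, the siRNA that lowered FOXP1 less, while RRM2B was higher with siFOXP1 #2 on average in each of the 4 lines.

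The response of the ABC-DLBCL lines exceeded that of the GCB-DLBCL lines for TP53INP1, by 0.95 ± 0.16 (SE; limma adjusted p = 0.00082). It was the only 1 of the 9 genes called in this contrast, where 2.26% of all genes were called. With siFOXP1 #1 alone the difference was 0.63, which reached the limit of size but did not pass the adjusted p (limma, 0.207). Whether the siRNAs differed in this contrast was not tested. Within scan sessions, each of which held 1 line of each subtype, the TP53INP1 difference was 0.72 ± 0.22 for OCI-Ly3 against DB (limma adjusted p = 0.105) and 1.18 ± 0.22 for HBL-1 against K422 (adjusted p = 0.00202). RRM2B (0.47 ± 0.08), FAS (0.38 ± 0.06), CDKN1A (0.25 ± 0.06) and GADD45A (-0.34 ± 0.06) passed the adjusted p for the difference between subtypes, with limma values from 0.00054 to 0.00978, but not the limit of size. The FAS value includes DB, where FAS was not above background. RRM2B reached it without replicate 2 or 3 of DB (0.51), replicate 2 of HBL-1 (0.50) or replicate 3 of K422 (0.53).

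Between HBL-1 and K422, 4 of 9 genes differed in response, against 4.34% of all genes. BTG2 (difference 0.57 ± 0.11, SE), RRM2B (0.72 ± 0.12) and TP53INP1 responded more in HBL-1, and GADD45A (-0.66 ± 0.08) more in K422, with limma adjusted p from 3.78e-05 to 0.00228. With siFOXP1 #1 alone none of the 4 was called, and BTG2 was not called without replicate 2 of K422 (0.48). CDKN1A (0.49) was called without replicate 2 of HBL-1 (0.56) or without replicate 1 (0.58) or 3 (0.51) of K422, and FAS (0.47) without replicate 2 or 3 of K422 (0.51). Between OCI-Ly3 and DB none of 9 was called, against 1.43% of all genes, and 3 had an unadjusted limma p under 0.05, FAS among them although it was not above background in DB. Without replicate 3 of DB (difference 0.97), or without only the array of siFOXP1 #1 replicate 3 in DB, on which TP53INP1 was 1.41, TP53INP1 was called, in the latter case with a difference of 0.92 (limma adjusted p = 0.00798).

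The levels in control cells were compared next, to see in which lines these transcripts were present in cells given siCtrl by nucleofection. A control level is log2 of the Cy5 signal minus the 75th percentile of its array, and it can be set against the same gene in another line but not against another gene. Within scan sessions, 7 of 9 genes differed at least 2-fold between OCI-Ly3 and DB and 7 of 9 between HBL-1 and K422, where 25.8% of all genes did so in each comparison. In both comparisons CDKN1A, SESN1 and ZMAT3 were higher in the ABC-DLBCL line, and TP53INP1 and GADD45A were higher in the GCB-DLBCL line. The line names and the subtype cannot be told apart with 2 lines per subtype. DB and OCI-Ly3 were scanned in another session than K422 and HBL-1. Where orders, spans and overlaps below set lines of different sessions side by side, line and scan cannot be told apart.

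**Figure D2:**
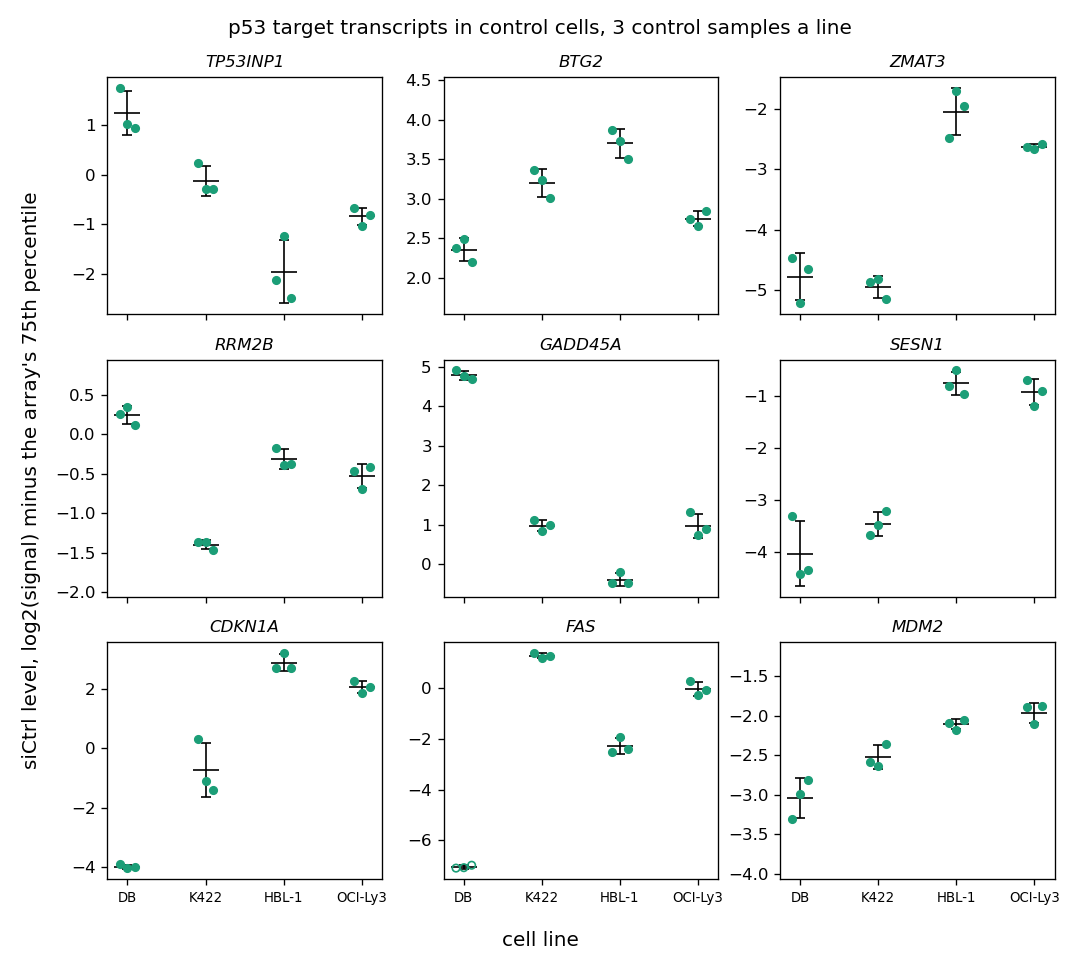
Control level (log2 signal minus the array's 75th percentile) of the 9 transcripts in the 3 control samples of each line, with the mean and SD in black; open points mark FAS in DB, which was not above background on any array. The vertical axis differs between panels. Between scan sessions, line and scan cannot be told apart. CDKN1A, SESN1 and ZMAT3 are higher in HBL-1 and OCI-Ly3 than in DB and K422, TP53INP1 and GADD45A are highest in DB, and FAS is highest in K422.

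CDKN1A spanned 6.85 log2 units. Its control level was 2.71, 3.19 and 2.71 in HBL-1 and 2.27, 1.86 and 2.05 in OCI-Ly3, but 0.31, -1.12 and -1.41 in K422 and -3.90, -4.03 and -4.01 in DB. No 2 lines overlapped. OCI-Ly3 exceeded DB by 6.04 ± 0.36 (SE; limma adjusted p = 1.07e-07) and HBL-1 exceeded K422 by 3.61 ± 0.36 (adjusted p = 9.14e-06). The control channel of the second CDKN1A feature was above background on no array of DB and on 4 of 6 of K422, so it gives no exact difference there. SESN1 was at -0.80, -0.50 and -0.95 in HBL-1 and -0.69, -1.19 and -0.89 in OCI-Ly3, which overlapped, and at -3.68, -3.48 and -3.21 in K422 and -3.31, -4.42 and -4.35 in DB, which also overlapped. The differences within scans were 3.11 ± 0.28 for OCI-Ly3 against DB and 2.70 ± 0.28 for HBL-1 against K422 (limma adjusted p = 3.39e-06 and 1.21e-05).

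ZMAT3 had control levels of -2.48, -1.70 and -1.96 in HBL-1 and -2.63, -2.67 and -2.59 in OCI-Ly3, above -4.47, -5.22 and -4.66 in DB and -4.88, -4.82 and -5.16 in K422, which overlapped each other. The differences were 2.16 ± 0.23 (SE) for OCI-Ly3 against DB and 2.91 ± 0.23 for HBL-1 against K422. The control channel was above background on 2 of 6 arrays of DB and 5 of 6 of K422, so these differences rest partly on background signal. MDM2 spanned 1.08, from a mean of -3.04 in DB through -2.52 in K422 and -2.11 in HBL-1 to -1.96 in OCI-Ly3, and only HBL-1 and OCI-Ly3 overlapped. OCI-Ly3 exceeded DB by 1.08 ± 0.15 (limma adjusted p = 9.25e-05), whereas HBL-1 exceeded K422 by 0.42 ± 0.15 (adjusted p = 0.0387), under the limit of 2-fold. The MDM2 call was lost without replicate 1 of DB (0.95), and with normexp and loess both the MDM2 and the ZMAT3 calls for OCI-Ly3 against DB were lost (0.43 and 0.63).

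TP53INP1 was at 1.76, 1.03 and 0.95 in DB, 0.23, -0.30 and -0.29 in K422, -0.68, -1.04 and -0.81 in OCI-Ly3, and -2.13, -1.25 and -2.49 in HBL-1, with no overlap between lines. The order of the control levels was thus the reverse of the order of the responses, HBL-1 having the lowest level and the greatest rise. TP53INP1 was lower by -2.09 ± 0.32 (SE) in OCI-Ly3 against DB and by -1.83 ± 0.32 in HBL-1 against K422 (limma adjusted p = 0.00022 and 0.000594). In the siFOXP1 channel of the same arrays the difference of HBL-1 against K422 was -0.65 and fell short of the limit of 2-fold. The level and the ratio share the control signal, so they are not independent measures.

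GADD45A stood at 4.91, 4.76 and 4.69 in DB, at 1.12, 0.83 and 0.99 in K422, at 1.32, 0.73 and 0.88 in OCI-Ly3 and at -0.48, -0.21 and -0.49 in HBL-1. DB was above all other lines, and K422 and OCI-Ly3 overlapped. The within-scan differences were -3.81 ± 0.16 (SE) for OCI-Ly3 against DB and -1.37 ± 0.16 for HBL-1 against K422 (limma adjusted p = 6.99e-09 and 4.02e-05). FAS was at 1.38, 1.19 and 1.27 in K422, at 0.27, -0.28 and -0.08 in OCI-Ly3 and at -2.53, -1.92 and -2.39 in HBL-1. FAS was not well above background in DB, and was at least 30.2-fold higher in OCI-Ly3 than in DB when each DB array was set at the dimmest feature above background. The limma fit, which used the measured background signal of DB, gave an adjusted p of 1.03e-10. In HBL-1 it was lower than in K422 by -3.56 ± 0.18 (adjusted p = 3.00e-08), so FAS did not divide the subtypes.

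RRM2B was highest in DB with a mean level of 0.24 ± 0.11 (SD, n = 3 control samples), then in HBL-1 at -0.31 ± 0.12, OCI-Ly3 at -0.53 ± 0.15 and K422 at -1.40 ± 0.06, with no overlap between neighbours. HBL-1 exceeded K422 by 1.08 ± 0.12 (SE; limma adjusted p = 2.56e-05), a call lost with median scaling (0.97) and with normexp and loess (0.84), while OCI-Ly3 was below DB by -0.77 ± 0.12, under the limit of 2-fold. BTG2 spanned 1.35 log2 units, from 2.35 ± 0.15 (SD) in DB through 2.75 ± 0.10 in OCI-Ly3 and 3.20 ± 0.18 in K422 to 3.71 ± 0.18 in HBL-1, with no overlap between neighbours. Within scans it was not called in either comparison (0.40 for OCI-Ly3 against DB and 0.50 for HBL-1 against K422).

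The remaining genes of the pathway were examined as lists. Of 36 other p53 targets, for example BAX, CCNG1 and XPC, none was called in DB, 1 rose in K422, 3 rose and 2 fell in HBL-1, and 1 rose in OCI-Ly3, where the shares of all genes called were, in the same order, 2.16%, 4.44%, 9.9% and 4.42%. The median log2 ratio of the 36 was -0.02 for DB, 0.00 for K422, -0.07 for HBL-1 and 0.00 for OCI-Ly3. BBC3, which encodes the proapoptotic BH3-only protein PUMA, rose by 0.84 ± 0.24 (SD, n = 6 arrays; limma adjusted p = 1.92e-07) in HBL-1 and 0.52 ± 0.12 (adjusted p = 7.99e-05) in K422. BTG1, an antiproliferative relative of BTG2, rose by 0.72 ± 0.16 in HBL-1, and CYFIP2, a component of the WAVE actin-regulating complex, by 0.54 ± 0.17. GDF15, a stress-induced cytokine, had a mean of -0.59 ± 0.36 in HBL-1 and was called as lower (limma adjusted p = 0.0258). The other 2 calls, chosen here to complete the counts after their values were seen, were SPATA18 at -0.62 in HBL-1 and PLK2 at 0.56 in OCI-Ly3, neither of which was above background on all 6 arrays. The PLK2 value leaves out 1 of the 6 arrays, whose spot was flagged as an outlier.

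**Figure D3:**
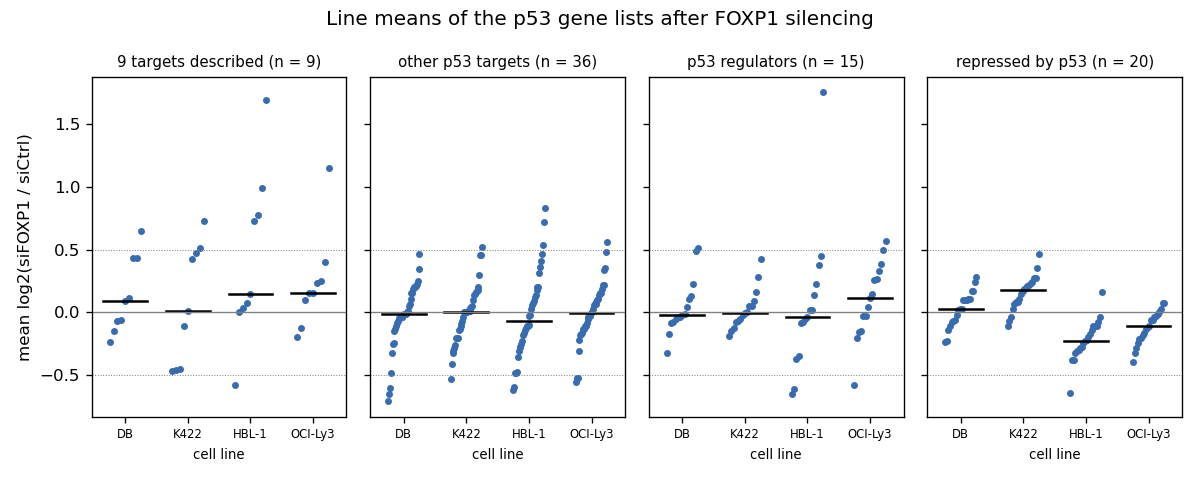
Mean log2(siFOXP1/siCtrl) over 6 arrays of each gene of 4 lists in the 4 lines, sorted by value within a line, with the list's median as a black bar and dotted lines at 0.5 and -0.5. The medians of the 36 other p53 targets lie between -0.07 and 0.00, and the 20 genes known to be repressed through p53 have medians of 0.18 in K422 and -0.23 in HBL-1.

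Among 20 cell cycle genes that p53 is known to repress through p21 and the DREAM complex, only CENPF, a kinetochore protein, was called, at -0.65 ± 0.17 (SD, n = 6 arrays) in HBL-1 (limma adjusted p = 8.17e-07). The list's median was 0.03 for DB, 0.18 for K422, -0.23 for HBL-1 and -0.11 for OCI-Ly3, with 12, 17, 1 and 4 of the 20 genes above 0. In the difference of response between HBL-1 and K422, 5 of the 20 were called, against 4.34% of all genes, and all 5 were lower in HBL-1. These were CCNB2, CENPF, TOP2A, BUB1 and CDC2, named here after their values were seen.

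Of 15 regulators of p53, 1 was called as higher in DB, 1 as higher and 2 as lower in HBL-1, 1 in each direction in OCI-Ly3 and none in K422, against 2.16%, 9.9%, 4.42% and 4.44% of all genes. TP63, a p53 relative that binds the same DNA element, rose by 1.75 ± 0.72 (SD, n = 6 arrays; limma adjusted p = 2.31e-07) in HBL-1, where its control channel was above background on 2 of 6 arrays. Its call in DB (0.51 ± 0.68) rests on a feature above background on 1 of 6 arrays. HIPK2, a kinase that phosphorylates p53, was called as lower in HBL-1 (-0.65 ± 0.23) and as higher in OCI-Ly3 (0.57 ± 0.23). CHEK1, a DNA damage checkpoint kinase, was lower in HBL-1 (-0.61 ± 0.30), and EP300, a histone acetyltransferase and p53 coactivator, was lower in OCI-Ly3 (-0.58 ± 0.44).

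The gene whose log2 ratio ran most like that of each target was sought among the 13881 genes that each of the 24 arrays measured above background in either channel, as a description with no test. Over the 24 arrays, which share lines and control RNA, the Pearson correlation was 0.941 for TP53INP1 with C9orf95, 0.910 for BTG2 with PSD4, 0.905 for GADD45A with ARFGAP3, 0.895 for FAS with FAM62B and 0.887 for RRM2B with INVS. It was 0.869 for CDKN1A with CD52, 0.845 for ZMAT3 with ALPPL2, 0.792 for SESN1 with C6orf35 and 0.882 for MDM2 with the unnamed feature A_32_P228570. After each line's mean was taken out, the correlation was 0.837 for TP53INP1, 0.822 for BTG2 and 0.877 for MDM2 but 0.536 for CDKN1A and 0.546 for GADD45A. The 6 arrays of DB, where FAS was not above background, enter its correlation.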

How the data were processed

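The authors scanned 24 Agilent 2-colour arrays, and the deposited output of Feature Extraction gives each spot's intensity in both channels and the log10 ratio (Cy5 to Cy3) left after linear and loess normalization within the array. Per the file headers, the version was 10.5.1.1 for DB and OCI-Ly3 (scan 1) and 10.7.3.1 for K422 and HBL-1 (scan 2). The authors also deposited a matrix of log2 ratios, which served as an alternative. Control spots and spots with an outlier flag were removed, repeated spots averaged, and the ratio turned to log2(siFOXP1/siCtrl).

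R 4.3.3 with limma 3.58.1 fitted 8 group means over 24 arrays, and 4 line means over 12 control samples for control levels. Adjustment ran over all genes. The fits were tested on simulated data. Members and lists were chosen with earlier results of these data known. Named genes are the 9 targets, FOXP1, at most 3 called genes per list, line and direction that were above background on all 6 arrays, and the most alike gene of each target. The promoter match rule was set after viewing the sequences. Replicate numbers pair arrays by their shared control label, which the main fit of the ratios did not model. With line and replicate number as a block, the consensus correlation was 0.248. Deviations of paired arrays from their group means correlated at 0.0467 to 0.284 over all genes and 0.0904 to 0.536 over 17169 bright genes. The series describes the replicates as independent experiments.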

Additional observations from a re-analysis of the deposited data

Results flagged for a closer look

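Of 36 combinations of gene and line, 3 held an array far from the other 5, where chance alone gives about 1.8 (1 in 20). On replicate 3 of siFOXP1 #2 in HBL-1 MDM2 was -1.02, against -0.56 to -0.36 on the others. On replicate 3 of siFOXP1 #1 in DB CDKN1A was -0.32, against -0.15 to -0.08. On replicate 1 of siFOXP1 #2 in HBL-1 FAS was -0.13, against 0.00 to 0.07.

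Responses that differed between lines by the limma contrast were those of TP53INP1 between subtypes (0.95 higher in ABC-DLBCL), and between HBL-1 and K422 those of BTG2 (0.57), RRM2B (0.72), TP53INP1 (1.18) and GADD45A (-0.66).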

How the results depend on the processing

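The number of the 9 genes called changed by more than 1.5 times under these settings. With no limit of size it was 2 in DB, 7 in K422, 3 in OCI-Ly3, 7 for the mean of the lines and 5 between subtypes, and with a limit of 2-fold it was 0 in DB, 1 in HBL-1, 0 in K422, 0 for the mean of the lines, 0 between subtypes and 1 for HBL-1 against K422. With normexp and median centring it was 0 in DB, 2 in HBL-1, 1 for the mean of the lines and 1 for HBL-1 against K422, and with normexp and loess 1 in K422. With the deposited matrix it was 2 between subtypes and 1 for OCI-Ly3 against DB, both gains being FAS, which was not above background in DB, and with any feature of a gene counted 2 in DB. The methods' t-test with Benjamini-Hochberg adjustment gave 0 in DB and 1 in K422, and slide as a block 1 in K422. With siFOXP1 #1 alone the number was 3 in HBL-1, 4 in K422, 0 between subtypes and 0 for HBL-1 against K422, and with siFOXP1 #2 alone 1 in K422 and 2 between subtypes. Leaving out each replicate gave 1 to 3 in DB, 2 to 4 in K422, 1 to 2 between subtypes and 0 to 1 for OCI-Ly3 against DB. Leaving out replicate 3 of siFOXP1 #1 in DB, an alternative chosen after seeing the data, gave 2 in DB and 1 for OCI-Ly3 against DB. The cause was not tested. The replicate block changed no count by over 1.5 times, with 5 in HBL-1 and 1 in DB as without it. Of single genes, CDKN1A in DB turned from -0.15 to 0.83 with any feature counted, on a feature not above background there. Of 2484 values of single genes under alternatives, 2371 kept their side of the threshold, 51 lost the call and 61 gained it, where a gene uncalled in both counts as kept whatever its sign. TP53INP1 stayed called in HBL-1 and OCI-Ly3 under all 30 settings run.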
